A study of Mus musculus with 6 samples.

Results

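Genes that store and break down triglyceride were examined in the RNA-seq of adult cardiomyocytes (CMs), the contractile muscle cells of the heart. The 10 genes were chosen by role from the 16448 genes listed in the deposited table: 4 perilipins (*Plin2*, *Plin3*, *Plin4*, *Plin5*), 4 genes of lipases and their regulators (*Pnpla2*, *Abhd5*, *G0s2*, *Lipe*) and 2 enzymes of triglyceride synthesis (*Dgat1*, *Dgat2*). Each symbol matched 1 row, and all 10 genes passed the filter on low values. Both groups were C57BL/6 mice aged 8 to 12 weeks that carried the αMHC-Cre transgene on 1 allele. The 3 CtrlCre samples had wild-type *Cpt1b* alleles (*Cpt1b* +/+), and the 3 Cpt1bcKO samples had both alleles floxed (*Cpt1b* fl/fl). αMHC is the promoter of the CM myosin gene *Myh6*, so Cre acts in CMs and from embryonic stages onwards, long before the adult cells were isolated. *Cpt1b* encodes the muscle form of carnitine palmitoyltransferase 1, which passes long-chain fatty acids into mitochondria for oxidation. The study gives mice as the replicates of an analysis built on these expression data. It reports at least 3 biological replicates for every quantitative analysis. The labels tie no sample to an animal, so *P* values measure the spread between these samples.

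Fatty acids that a cell does not burn at once are esterified to triglyceride and kept in lipid droplets. Droplets are coated by perilipins, which control the access of lipases. Adipose triglyceride lipase (ATGL, encoded by *Pnpla2*) removes the first fatty acid, with ABHD5 as its activator and G0S2 as its inhibitor, and hormone-sensitive lipase (*Lipe*) acts on the resulting diacylglycerol. In heart muscle, which relies on fatty acids, PLIN5 is the perilipin of oxidative tissues and holds droplets close to mitochondria. The comparison asked whether the RNA of this cycle differs when entry of fatty acids into mitochondria is blocked at CPT1B.

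The deposited values are whole numbers, namely read counts that had been scaled by sample (normalized counts below). The targeted gene checked the labels: *Cpt1b* had 1861, 893 and 1443 normalized counts in CtrlCre samples 1, 2 and 3 and 211, 353 and 285 in Cpt1bcKO samples 1, 2 and 3, and fell 4.82-fold (log2 fold change −2.27, adjusted *P* = 0.00338 in limma), although reads on exons outside the deleted part are counted too. Exons of *Cpt1b* also overlap those of *Gm44502* on the same strand, and the authors excluded reads that fell on several genes. The effect of this on the *Cpt1b* values was not tested. The values summed to between 13393411 and 31722217 per sample, of which the mitochondrial rRNA gene *mt-Rnr2* took 63.2% to 64.6% in CtrlCre samples and 61.8%, 72.6% and 80.8% in Cpt1bcKO samples 1, 2 and 3. With mitochondrial-encoded and rRNA genes left out, CtrlCre samples held 3438589 to 3551692 and Cpt1bcKO samples 3146414 to 3315777, without overlap. The part of this difference in the results below was not tested. By *Xist* and Y-linked genes, sample 1 was female in each group and samples 2 and 3 were male. All 10 CM markers were detected, with summed values of 306805 to 357463 in CtrlCre and 225623 to 267346 in Cpt1bcKO samples. Of the 10, 9 had estimates below 0, 5 of them without overlap and 3 at an unadjusted *P* value below 0.05 in limma. The other marker, *Mybpc3*, was higher without overlap. Over all genes tested, 9.13% were higher and 9.6% lower without overlap. At an unadjusted *P* value below 0.05 in limma, 6.66% were higher and 7.22% lower. The sum of 8 fibroblast markers was 498 to 785 in CtrlCre and 1108 to 1338 in Cpt1bcKO samples, and 7 of them were tested. All 7 were higher in Cpt1bcKO, with an unadjusted *P* value below 0.05 in 7 and an adjusted one in 2 (limma). The sum of 8 endothelial markers was 1464 to 3116 and 2832 to 3287, and all 8 had estimates above 0, with a median log2 fold change of 0.34 and 1 unadjusted *P* value below 0.05 in limma. The sum of 8 macrophage markers was 141 to 243 and 173 to 198, and that of 8 smooth muscle and pericyte markers 1109 to 2313 and 1175 to 1739. The 2 erythroid markers with a row summed to 3 to 20 and 1 to 18. Of 8 adipocyte markers only *Fabp4*, which capillaries also express, was analysed here, with 182 to 311 and 252 to 278. Of 4 brown fat markers 2 were analysed, *Cox7a1* and *Cidea*, which together gave 689 to 848 and 564 to 812. Most of this sum was *Cox7a1*, with 748, 797 and 641 in CtrlCre and 698, 486 and 484 in Cpt1bcKO samples. Whether its reads came from CMs or from brown fat was not tested. The 2 genes went in opposite directions, with log2 fold changes of −0.41 for *Cox7a1* and 0.66 for *Cidea*. Both had an unadjusted *P* value below 0.05 in limma. The part of other cells in the results below was not tested, and in bulk RNA a lower number of cells of a type and less RNA per cell cannot be told apart.

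*G0s2* fell in the Cpt1bcKO CMs by more than any other of the 10 genes, and it was the only one of the 10 genes that passed the test after adjustment. It had 237, 147 and 99 normalized counts in CtrlCre samples 1, 2 and 3 and 56, 35 and 40 in Cpt1bcKO samples 1, 2 and 3. The lowest control sample thus stood well above the highest Cpt1bcKO sample. The group means were 161 ± 70.1 and 43.7 ± 10.97 (SD, *n* = 3 each). On the log2(value + 1) scale the fold change was −1.80 (standard error 0.314, 95% interval −2.49 to −1.10, adjusted *P* = 0.0203 in limma with Benjamini–Hochberg adjustment), that is, 3.47-fold lower. Of the 11364 genes tested, 48 fell further, since *G0s2* ranked at position 49 from the lowest log2 fold change. Among all genes tested, 0.906% passed the adjusted threshold as lower and 0.66% as higher, against 1 and 0 of the 10 genes here. When values were instead scaled to the sum left after removal of mitochondrial and rRNA genes, which put the median of all genes at 0.11, those calls over all genes were 74 lower and 102 higher, in place of 103 and 75.

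*G0s2* was lower in the Cpt1bcKO samples of either sex, but each group held a single female, so the female difference has no measure of spread. The CtrlCre female had 237 and the Cpt1bcKO female 56 normalized counts of *G0s2*, a ratio of 4.23. In males the means were 123 and 37.5, a ratio of 3.28, and males alone gave a log2 fold change of −1.66 with an adjusted *P* value of 0.0144 in limma. With sex as a covariate the adjusted *P* value was 0.00127 in limma. Of the 6 fits with a sample left out, 4 no longer passed the adjusted threshold, although the gene remained lower in each. Without CtrlCre samples 1 and 2 in turn, the adjusted *P* values in limma were 0.0558 and 0.0868, with log2 fold changes of −1.47 and −1.82. Without Cpt1bcKO samples 2 and 3 in turn they were 0.127 and 0.0616, with log2 fold changes of −1.65 and −1.75. It was also lost when a single prior variance was used for all genes (adjusted *P* = 0.102 in limma). Over all 17 alternatives the adjusted *P* value in limma ranged from 0.00127 to 0.127 and the log2 fold change from −2.10 to −1.47.

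*G0s2* (ENSMUSG00000009633) lies on the minus strand of chromosome 1 from 193272161 to 193273217 (GRCm38), opposite *Lamb3*, a laminin gene. The exons of the genes do not overlap in GENCODE vM21. *Lamb3* had 124, 68 and 73 normalized counts in CtrlCre and 48, 38 and 54 in Cpt1bcKO samples, so it was lower too (log2 fold change −0.87, adjusted *P* = 0.182 in limma). Whether the counting used strand is not given in the sources used here, and reads from unspliced *Lamb3* RNA at *G0s2* were not tested. The sequence around its start site is printed here because *G0s2* is the gene that changed, and that of *Plin2* because it alone held the motif searched. Both are from RefSeq (GRCm38.p6) and run 5′ to 3′ on the minus strand from 250 bases before to 50 bases after the start, over chr1:193273139-193273438 and chr4:86670010-86670309. Capitals mark a match to a direct repeat of AGGTCA with 1 base between the copies, the element bound by PPAR receptors, on either strand and with up to 2 mismatches in 12 letters.
*G0s2*: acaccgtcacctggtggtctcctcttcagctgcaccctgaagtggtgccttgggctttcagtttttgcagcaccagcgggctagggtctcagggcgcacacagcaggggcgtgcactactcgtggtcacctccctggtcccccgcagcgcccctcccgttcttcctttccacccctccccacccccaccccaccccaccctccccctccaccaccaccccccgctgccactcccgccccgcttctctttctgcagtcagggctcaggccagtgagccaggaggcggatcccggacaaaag
*Plin2*: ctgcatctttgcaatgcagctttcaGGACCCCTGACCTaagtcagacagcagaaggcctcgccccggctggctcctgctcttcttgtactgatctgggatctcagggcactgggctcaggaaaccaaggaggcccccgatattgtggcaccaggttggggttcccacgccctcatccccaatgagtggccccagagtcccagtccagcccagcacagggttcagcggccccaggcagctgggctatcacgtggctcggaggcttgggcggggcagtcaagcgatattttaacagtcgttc

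Promoters of 8 of the 10 genes were found in the RefSeq table, 10 sequences in all, as *Plin5* and *Lipe* had more than 1 start. The repeat was found in the *Plin2* sequence only, at position −225 from the start site with 2 mismatches, and in 3.86% of the 32851 promoters of this length. In *G0s2* the best match had 3 mismatches. A match is a run of letters and not a site shown to be bound, and a lack of one covers these 300 bases only. None of the 8 genes held the exact letters TATAAA on the strand of the gene, which 8.32% of all promoters hold. Variants were not searched, such as the TATAAG in the *Plin4* sequence and in 1 of the *Plin5* sequences, so a TATA box is not excluded. *G0s2* had a GC content of 66.7% against a median of 52.7%. All 10 sequences lay above this median, from 59.3% (*Plin3*) to 69.3% (1 of the *Plin5* starts).

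**Figure D1:**
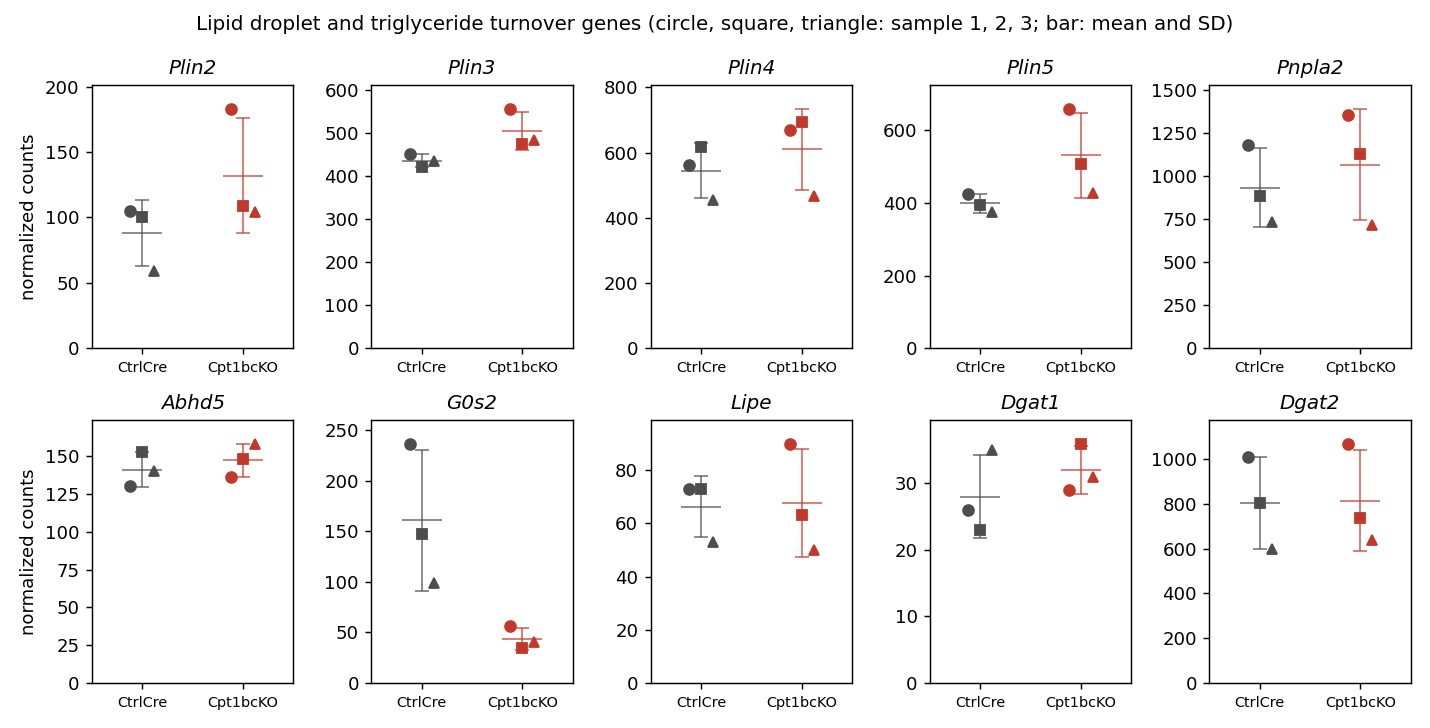
Normalized counts of each gene (y axis, from 0) in the 3 CtrlCre (grey) and 3 Cpt1bcKO samples (red), with circles, squares and triangles for samples 1, 2 and 3 and the mean with SD as bars. *G0s2* separates the groups, with 99 to 237 against 35 to 56 normalized counts, whereas for *Pnpla2*, *Abhd5*, *Lipe*, *Dgat1* and *Dgat2* the groups overlap.

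The lipase that G0S2 inhibits did not show a comparable difference. *Pnpla2* (ENSMUSG00000025509, chr7:141455198-141460743, plus strand) had 1184, 883 and 734 normalized counts in CtrlCre and 1356, 1130 and 716 in Cpt1bcKO samples, so that the lowest value of all was a Cpt1bcKO sample. Its log2 fold change was 0.17 (95% interval −0.37 to 0.71, adjusted *P* = 0.801 in limma). The estimate was −0.025 without Cpt1bcKO sample 1, 0.013 without CtrlCre sample 3, 0.36 without CtrlCre sample 1, and 0.11 and 0.43 without Cpt1bcKO samples 2 and 3. The activator gene *Abhd5* (ENSMUSG00000032540, chr9:122351608-122381524, plus strand) had 130, 153 and 140 normalized counts in CtrlCre and 136, 148 and 158 in Cpt1bcKO samples. These values spread over the same range, with a log2 fold change of 0.063 (95% interval −0.31 to 0.44, adjusted *P* = 0.904 in limma), and 0.0069 to 0.12 when a sample was left out. *Lipe* (ENSMUSG00000003123, chr7:25379527-25398710, minus strand) had 73, 73 and 53 normalized counts in CtrlCre and 90, 63 and 50 in Cpt1bcKO samples. Its highest and its lowest value were both in Cpt1bcKO samples, and the log2 fold change was 0.0021 (95% interval −0.58 to 0.59, adjusted *P* = 0.999 in limma). Exons of *Abhd5* and *Lipe* overlap antisense genes with mean values of 3.67 and 2.67.

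G0S2 acts by binding ATGL, so their RNAs were also set against each other within each sample, which removes the scaling between samples. Levels of different genes were compared per kb of exon annotated in GENCODE vM21. *G0s2* over *Pnpla2* was 0.694, 0.577 and 0.468 in CtrlCre samples 1, 2 and 3 and 0.143, 0.107 and 0.194 in Cpt1bcKO samples 1, 2 and 3. The groups did not overlap, and the means of the log2 ratios differed by −1.99. *Abhd5* over *Pnpla2* was 0.0557, 0.0879 and 0.0967 in CtrlCre and 0.0509, 0.0664 and 0.112 in Cpt1bcKO samples, and here the groups overlapped. *Plin5* over *Pnpla2* was 0.519 to 0.739 and 0.648 to 0.863. In total 5 such ratios were compared with two-sided exact permutation tests, in which 3 samples against 3 cannot go below *P* = 0.10. That value was reached by *G0s2* over *Pnpla2* (adjusted *P* = 0.50 over the 5 exact tests), and *Abhd5* over *Pnpla2* had an exact *P* value of 0.90.

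**Figure D2:**
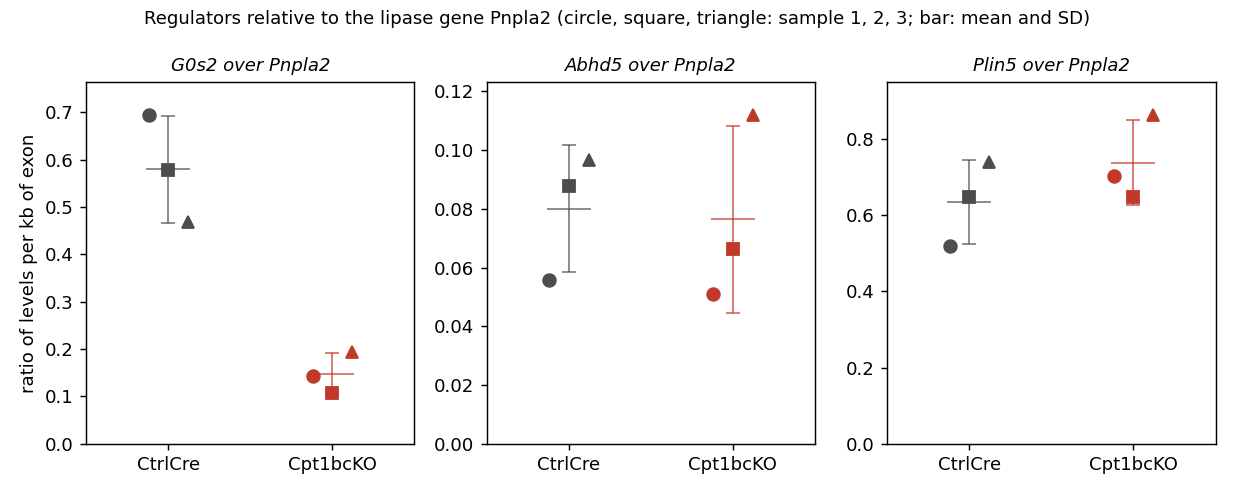
Ratio of the levels per kb of exon of *G0s2*, *Abhd5* and *Plin5* to that of *Pnpla2* (y axes from 0) in each CtrlCre (grey) and Cpt1bcKO sample (red), with circles, squares and triangles for samples 1, 2 and 3 and the mean with SD as bars. The *G0s2* ratio is 0.468 to 0.694 in CtrlCre and 0.107 to 0.194 in Cpt1bcKO samples, and the other ratios overlap.

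All 4 perilipins had estimates above 0 in the Cpt1bcKO CMs, here and in all 17 alternatives, but none passed the adjusted test in limma. *Plin5* (ENSMUSG00000011305, chr17:56111601-56117596, minus strand) had 425, 395 and 375 normalized counts in CtrlCre and 659, 506 and 427 in Cpt1bcKO samples. The groups did not overlap, although the highest control and the lowest Cpt1bcKO value were only 425 and 427. Its log2 fold change was 0.39 (standard error 0.176, 95% interval 0.00091 to 0.78, unadjusted *P* = 0.0496 and adjusted *P* = 0.358 in limma). Without Cpt1bcKO sample 1, the female, the log2 fold change was 0.22, and without sample 3 of that group it was 0.54. The unadjusted *P* value in limma stayed below 0.05 in 9 of the 17 alternatives. It was above in males alone, with recomputed size factors, with a single prior variance and in 5 of the 6 fits with a sample left out, up to 0.192. *Plin2*, the widely expressed perilipin, is encoded on the minus strand of chromosome 4 from 86656565 to 86670060 (ENSMUSG00000028494). It had 105, 100 and 59 normalized counts in CtrlCre and 183, 109 and 104 in Cpt1bcKO samples, with 1 Cpt1bcKO sample well above the rest. Its log2 fold change was the highest of the 10 genes at 0.58 (standard error 0.286, 95% interval −0.059 to 1.21, unadjusted *P* = 0.0709 and adjusted *P* = 0.406 in limma). It was 0.31 without CtrlCre sample 3 and 0.32 without Cpt1bcKO sample 1.

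*Plin3* (ENSMUSG00000024197, chr17:56278962-56290511, minus strand), which also occurs in the cytosol, varied least among the control samples. It had 452, 422 and 435 normalized counts in CtrlCre and 557, 476 and 484 in Cpt1bcKO samples, without overlap. The log2 fold change was 0.21 (95% interval −0.10 to 0.52, adjusted *P* = 0.552 in limma), and it was 0.14 without Cpt1bcKO sample 1. *Plin4* (ENSMUSG00000002831, chr17:56100591-56109803, minus strand) had 562, 618 and 453 normalized counts in CtrlCre and 668, 694 and 467 in Cpt1bcKO samples. Sample 3 was the lowest of each group, and the log2 fold change was 0.15 (95% interval −0.27 to 0.57, adjusted *P* = 0.770 in limma). The estimate was 0.027 without CtrlCre sample 3, 0.077, 0.049 and 0.33 without Cpt1bcKO samples 1, 2 and 3 in turn, and 0.25 without CtrlCre sample 2. *Plin4* and *Plin5* are direct neighbours on the same strand, with 1797 bases and no annotated gene between them, and *Plin3* follows 161365 bases further on. Exons of *Plin4* overlap those of *Hdgfl2* on the other strand, which had 112, 93 and 118 normalized counts in CtrlCre and 129, 141 and 135 in Cpt1bcKO samples.

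Among the perilipins, *Plin5* made up the largest part of the summed level per kb, with 44.9% ± 1.38 in CtrlCre and 47.7% ± 2.11 in Cpt1bcKO samples (SD, *n* = 3 each). *Plin3* held 27.2% ± 2.04 and 25.5% ± 2.97, *Plin4* 22.1% ± 2.24 and 19.9% ± 2.79, and *Plin2* 5.83% ± 1.31 and 6.98% ± 1.17. GENCODE vM21, which gave the exon lengths, has other ends for *Plin2* and *Plin3* than the deposited table, so the size of these shares is less certain. The *Plin5* share was 43.4% to 46.1% in CtrlCre and 46.2% to 50.1% in Cpt1bcKO samples, just without overlap, whereas the shares of the other 3 overlapped. Their summed level per kb was 450, 436 and 390 in CtrlCre and 631, 519 and 443 in Cpt1bcKO samples 1, 2 and 3, so Cpt1bcKO sample 3 lay within the control range.

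The RNA of the 2 enzymes for the final step of triglyceride synthesis showed no detectable difference. *Dgat2* (ENSMUSG00000030747, chr7:99153658-99182719, minus strand) had 1008, 804 and 599 normalized counts in CtrlCre and 1069, 736 and 638 in Cpt1bcKO samples. The samples of the groups interleaved, and the log2 fold change was 0.016 (95% interval −0.49 to 0.53, adjusted *P* = 0.984 in limma). *Dgat1* (ENSMUSG00000022555, chr15:76502015-76511951, minus strand), which encodes the other enzyme for the same reaction, was low, with 26, 23 and 35 normalized counts in CtrlCre and 29, 36 and 31 in Cpt1bcKO samples. Its log2 fold change was 0.20, with a wide 95% interval from −0.43 to 0.83 (adjusted *P* = 0.798 in limma). Leaving out a sample moved the estimate from 0.076 (CtrlCre sample 2) to 0.37 (CtrlCre sample 3), with 0.12 without Cpt1bcKO sample 2. Per kb of exon, *Dgat2* exceeded *Dgat1* in every sample, by 17.0-fold to 38.4-fold in CtrlCre and 20.3-fold to 36.5-fold in Cpt1bcKO samples.

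**Figure D3:**
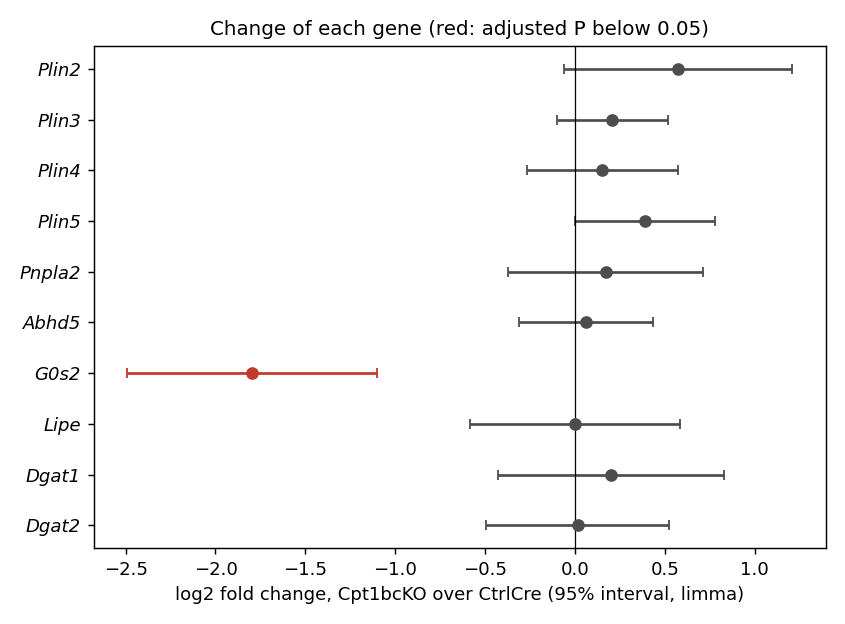
Log2 fold change of Cpt1bcKO over CtrlCre samples for each gene (x axis) with the 95% interval from limma, and red for an adjusted *P* value below 0.05. *G0s2* lies at −1.80, and the other 9 estimates lie between 0.0021 and 0.58.

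Of the 10 genes, 9 thus had an estimate above 0 and 1 below, with a median log2 fold change of 0.16 beside −0.0013 for all genes tested. This median was 0.043 without CtrlCre sample 3, 0.098 and 0.089 without Cpt1bcKO samples 1 and 2, and 0.27 on the scale without mitochondrial and rRNA genes, where that of all genes was 0.11. For *Lipe* and *Dgat2* the sign turned in males alone, with log2 fold changes of −0.15 and −0.018. *Lipe* was also below 0 with recomputed size factors (−0.0080). Without adjustment, *P* values below 0.05 were found in limma for 1 higher gene (*Plin5*) and 1 lower gene (*G0s2*), where 6.66% and 7.22% of all genes tested did so. Groups did not overlap in 2 higher genes (*Plin3* and *Plin5*) and 1 lower gene (*G0s2*), where 9.13% and 9.6% of all genes tested did not. For *Plin5* this rests on 425 against 427 normalized counts, and overlap was read on the deposited scale only. With 10 genes, 1 gene more or fewer moves such a share by 10 percentage points.

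The female sample was the highest of its group for 6 of the 10 genes in CtrlCre and 7 in Cpt1bcKO. In both groups these held *Plin2*, *Plin3*, *Plin5*, *Pnpla2*, *G0s2* and *Dgat2*, and *Lipe* was tied between the female and a male in CtrlCre. The share of all genes tested that were highest in the female was not counted, so these counts do not set the 10 genes apart. As each group held a single female, sex and any other property of these samples cannot be told apart. The CtrlCre female, which held the highest *G0s2* value, also had the highest sum of CM markers (357463) and the lowest sums in its group of endothelial (1464, against 2785 and 3116), smooth muscle (1109, against 1793 and 2313) and fibroblast markers (498, against 785 and 772). The part of these differences in its values was not tested. *Plin5* was 1.55-fold higher in the Cpt1bcKO female and 1.21-fold higher in the male means, and *Plin2* 1.74-fold and 1.34-fold. Neither difference between the sexes was tested.

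The order of the levels per kb in the control CMs was *Pnpla2* (309 ± 75.9), *Dgat2* (261 ± 66.3), *Plin5* (191 ± 12.1), *G0s2* (185 ± 80.4), *Plin3* (115 ± 3.97), *Plin4* (94.2 ± 14.5), *Plin2* (25.1 ± 7.19), *Abhd5* (23.7 ± 1.94), *Lipe* (11.3 ± 1.96) and *Dgat1* (9.16 ± 2.04), in normalized counts per kb of exon (SD, *n* = 3). The sample ranges of neighbours overlapped from *Pnpla2* down to *Plin3*, between *Plin2* and *Abhd5* and between *Lipe* and *Dgat1*. They were apart between *Plin3* and *Plin4*, between *Plin4* and *Plin2* and between *Abhd5* and *Lipe*. The places of *Plin2* and *Plin3* are less certain, since GENCODE vM21 gives them other ends than the deposited table. In Cpt1bcKO CMs *G0s2* moved from position 4 to position 6, at 50.1 ± 12.6 per kb, next to *Plin2* at 37.6 ± 12.6. The other 9 genes kept the order of their means, with overlapping ranges from *Pnpla2* to *Plin5* and between *Lipe* and *Dgat1*. In the control samples the *Pnpla2* level per kb exceeded that of 96.8% of the 11354 tested genes with an annotated length, that of *G0s2* 94.4% and that of *Dgat1* 33.9%.

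**Figure D4:**
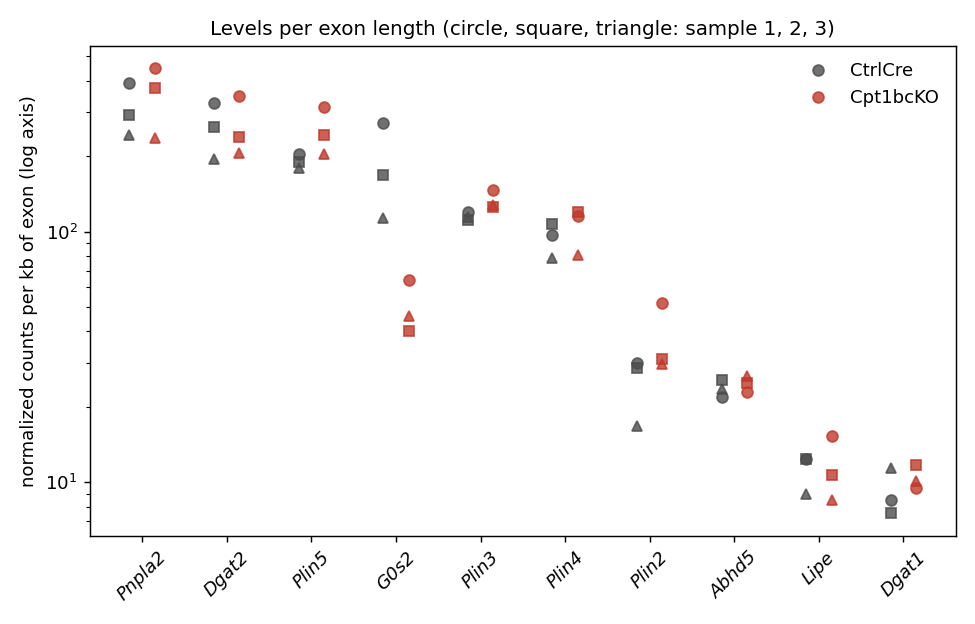
Normalized counts per kb of annotated exon (log axis) of each gene in CtrlCre (grey) and Cpt1bcKO samples (red), ordered by the control mean, with circles, squares and triangles for samples 1, 2 and 3. *G0s2* drops from 185 to 50.1 per kb on average, while *Pnpla2* and *Dgat2* have the highest means in both groups. The sample ranges of *Dgat2* and *Plin5* overlap in each group.

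Genes whose profile over the 6 samples was most like that of *G0s2* were sought by the root mean square difference of mean-centred log2 values, over the 6797 genes whose mean reached 50. The nearest were *Emilin2* (0.202), an extracellular matrix gene with 210, 118 and 116 normalized counts in CtrlCre and 46, 34 and 44 in Cpt1bcKO samples, *Rpl3l* (0.221), the muscle form of a ribosomal protein, and *Angpt1* (0.238), a vessel growth factor. Their log2 fold changes were −1.77, −1.53 and −2.15. For *Plin5* they were *Rhoc* (0.0569), *Prpf38a* (0.0714) and *Adssl1* (0.0721), with log2 fold changes of 0.43, 0.39 and 0.46, none of which passed the adjusted test.

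A wider list of 38 genes for the droplet coat, glycerolipid synthesis and other neutral lipid hydrolases was then read from the same fit, of which 31 had a row in the table and 27 passed the filter. Of these, 14 had estimates above 0 and 13 below, with a median log2 fold change of 0.012. In limma, 1 lower gene and 0 higher genes passed the adjusted test, and 5 higher and 4 lower genes had an unadjusted *P* value below 0.05. Over all genes tested, 0.906% were lower and 0.66% higher after adjustment, and 6.66% were higher and 7.22% lower without it. *Plin1* and *Cidec*, which coat and enlarge the droplets of fat cells, were not analysed here.

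The gene that passed was *Ces1d*, which encodes a carboxylesterase that hydrolyses triglyceride. It fell from 317, 307 and 294 to 123, 91 and 118 normalized counts, without overlap and with little spread within the groups. The log2 fold change of *Ces1d* was −1.47 ± 0.173 (standard error, adjusted *P* = 0.00338 in limma). *Ces1d* has close copies in the same gene cluster, and the authors excluded reads that aligned to several regions, so its absolute level is less certain. Of the 10 tested genes of glycerolipid synthesis, 4 had estimates above 0 and 6 below, with a median log2 fold change of −0.041, and in limma none passed the adjusted test. An unadjusted *P* value below 0.05 was found for 3 with estimates above 0 and 0 below, beside the 6.66% and 7.22% of all genes. *Gpam*, the mitochondrial acyltransferase that starts the pathway, had 1018, 974 and 544 normalized counts in CtrlCre and 1697, 1469 and 1009 in Cpt1bcKO samples (log2 fold change 0.74, adjusted *P* = 0.227 in limma). The lowest Cpt1bcKO value lay just below the highest control value. *Agpat2*, which adds the second fatty acid, had 146, 122 and 84 normalized counts in CtrlCre and 258, 148 and 176 in Cpt1bcKO samples (log2 fold change 0.72, adjusted *P* = 0.242 in limma, and 0.0446 with sex as covariate). *Lpin2*, a phosphatidate phosphatase, had 10, 23 and 26 and 27, 37 and 44 normalized counts (log2 fold change 0.92, adjusted *P* = 0.332 in limma). Neither *Agpat2* nor *Lpin2* overlapped between the groups. In the whole wider list of 27 tested genes, 2 higher and 3 lower genes did not overlap, beside 9.13% and 9.6% of all genes.

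Of the 10 tested genes of the droplet coat, formation and fusion, 6 had estimates above 0 and 4 below, with a median log2 fold change of 0.023. In limma 0 passed the adjusted test, and 2 above and 3 below had an unadjusted *P* value under 0.05, where 6.66% and 7.22% of all genes did. *Tmem159* (also named *Ldaf1*), whose product works with seipin where droplets form, had 63, 51 and 50 normalized counts in CtrlCre and 37, 16 and 30 in Cpt1bcKO samples (log2 fold change −1.03, adjusted *P* = 0.183 in limma). *Fitm2*, needed for droplets to leave the endoplasmic reticulum, had 1275, 1196 and 1046 and 969, 864 and 813 normalized counts (log2 fold change −0.41, adjusted *P* = 0.222 in limma). For both genes every Cpt1bcKO sample was below every control sample. *Fitm1*, named after its values were seen, had 98, 94 and 61 and 61, 55 and 54 normalized counts (log2 fold change −0.54, adjusted *P* = 0.348 in limma). *Hsd17b11*, a droplet-associated dehydrogenase, varied widely, with 90, 131 and 29 normalized counts in CtrlCre and 417, 323 and 104 in Cpt1bcKO samples (log2 fold change 1.77, adjusted *P* = 0.196 in limma), and sample 3 was the lowest of each group. *Cidea*, which promotes droplet fusion, had 84, 51 and 48 and 114, 90 and 80 normalized counts (log2 fold change 0.66, adjusted *P* = 0.287 in limma).

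**Figure D5:**
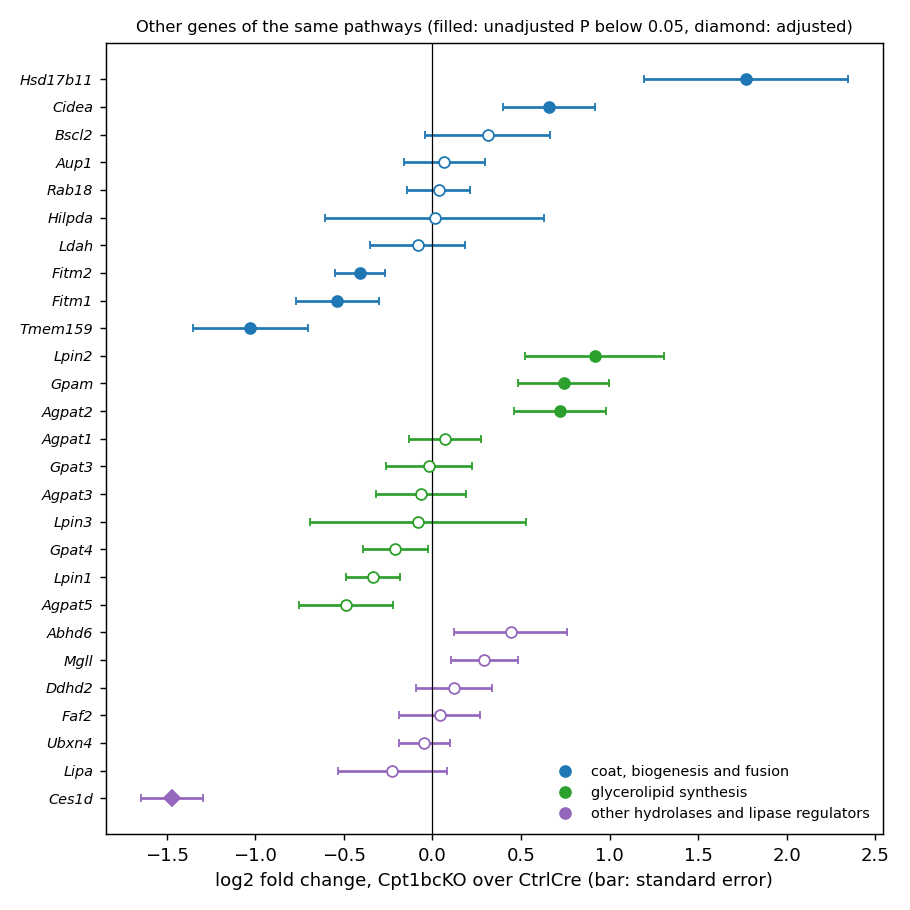
Log2 fold change of Cpt1bcKO over CtrlCre samples (x axis, bars are standard errors from limma) for the 27 tested genes of the wider list, coloured by role, filled where the unadjusted *P* value was below 0.05 and as a diamond where the adjusted one was. Only *Ces1d*, at −1.47, is a diamond.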

How the data were processed

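RNA from isolated adult CMs of 3 CtrlCre and 3 Cpt1bcKO samples was sequenced, and the authors trimmed reads with Trimmomatic (0.36 or later), aligned them to mm10 with STAR (2.5.4b or later) and counted them on exons with featureCounts (1.6.0 or later). They excluded reads that aligned to more than 1 place or gene. The deposited score values are these counts divided by a DESeq2 size factor for each sample and rounded by the authors, so raw counts were not recovered and no count model was used. The number of reads behind a value is unknown. In Cpt1bcKO sample 3, 11 of the whole numbers from 1 to 50 never occurred, so a read was worth more than 1 there. The group means, fold changes and *P* values that the authors computed were not used.

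Values were transformed to log2(value + 1), which understates the fold changes of low genes. Genes that reached 10 in 3 or more samples were tested with limma (version 3.58.1, R 4.3.3, eBayes with trend), with Benjamini–Hochberg adjustment over all genes tested. Only the limma step was tried on simulated data. These were unscaled counts with a single dispersion for all genes, unlike the scaled and rounded values here. Groups come from the sample titles. Exon lengths are from GENCODE vM21 (GRCm38), which gives other ends for *Plin2*, *Plin3* and *Dgat1*, so coordinates are those of the deposited table. The 10 genes, the wider list and the marker lists were chosen with earlier results of these data known. Named genes are the 10 genes, *Cpt1b*, the 8 genes of the wider list with the smallest unadjusted *P* values below 0.05, *Plin1*, *Cidec*, and the 3 nearest profiles of the 2 genes with the smallest *P* values. Marker genes and the overlapping genes *Lamb3*, *Hdgfl2* and *Gm44502* were added, and *Fitm1* was named after its values were seen. Alternatives were pseudocounts of 0.5 and 5, other filters and scalings, 1 prior variance, a replicate block, sex as covariate and leaving out each sample. A fit on males alone was added after seeing the data.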

Additional observations from a re-analysis of the deposited data

How the results depend on the processing

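The count of 1 of the 10 genes past the adjusted threshold became 0 with a single prior variance for all genes, and ranged from 0 to 1 when each sample was left out. It was 2 with an unadjusted *P* value. The wider list had 1 gene past the adjusted threshold, 2 with sex as covariate, 5 with the replicate block and 9 with an unadjusted *P* value. Of all 11364 genes, 178, 574 and 603 passed in the first 3 of these fits, and 757 higher and 821 lower genes had an unadjusted *P* value below 0.05. With a single prior variance the log2 fold change of *Cpt1b* stayed at −2.27, with an adjusted *P* value of 0.0563 in limma. The causes were not tested. The log2 fold change of *G0s2* kept its direction in all 17 alternatives. No other of the 10 genes passed the adjusted threshold in any of them. *Dgat2* and *Lipe* turned sign without CtrlCre sample 3 and without Cpt1bcKO sample 1, and *Pnpla2* without the latter. Scaling to the sum left after removal of mitochondrial and rRNA genes put *G0s2* at −1.69.

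Replicate numbers are in the titles, but what same-numbered samples share is not given there. By *Xist* and Y-linked genes they shared sex, with sample 1 female and samples 2 and 3 male, so the replicate block also takes up sex. Deviations from the group means correlated across genes, which are not independent replicates, at 0.376, 0.255 and 0.0684 in the same-numbered pairs, and samples 3 of both groups correlated better with sample 2 of the other group (0.147 and 0.119). Under the replicate block the adjusted *P* value in limma was 0.00170 for *G0s2*. Beside *Ces1d* it fell below 0.05 for *Hsd17b11* (0.00108), *Gpam* (0.00426), *Fitm2* (0.0472) and *Agpat2* (0.0490). A single prior variance gave 41 calls over all genes, and leaving out a sample 40 to 305. The smallest values of the 10 genes, 23 to 36 in *Dgat1*, limit what can be detected there.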
